A study of Mus musculus with 9 samples.

Results

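Gpnmb, Cd68 and 6 genes of the MiT/TFE regulatory system (Mitf, Tfeb, Tfe3, Flcn, Fnip1 and Fnip2) were followed on 9 expression arrays of the mouse mammary tumor line D2.OR in 3D culture. These 8 genes were among 19938 genes with a probe set of their own, and each was read from its brightest probe set. Gpnmb and Cd68 were picked because they were lowest in non-fibrillar collagen I, intermediate in fibrillar collagen I and highest in Matrigel on these same arrays, so their levels are given as a description with no test. The regulators were added for their function, although with earlier results of these data known, and were tested in a fit across all genes.

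The arrays fell into 3 groups of 3 by their titles, namely fibrillar collagen I, non-fibrillar collagen I and Matrigel, a basement membrane extract. All groups hold the same cell line with no other treatment or allele named, and the comparison the series was designed for is that between the 2 forms of collagen. Matrigel arrays are known only by title: their growth label reads non-fibrillar collagen I, the design text names no Matrigel condition, and any batch specific to them cannot be told apart from the group. Whether arrays of a group stem from separate cultures is not stated in the labels, and p-values therefore cover only the spread between these arrays, which may be technical. Values are on the log2 RMA scale, in which 1 unit is a factor of 2, the array medians lay between 5.98 and 6.05, and levels of different probe sets are not comparable with each other. With 3 arrays per group the number of arrays limits the precision, and as RNA came from whole cultures, a change in the number of cells of a kind and a change of RNA per cell cannot be told apart.

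MITF, TFEB and TFE3 are related transcription factors that bind short E-box sequences and raise the expression of lysosomal and autophagy genes, and in melanocytes and osteoclasts MITF also drives the genes of pigmentation and bone resorption. Folliculin (Flcn) and its partners Fnip1 and Fnip2 act on the Rag GTPases at the lysosome, where the mTORC1 kinase phosphorylates TFEB and TFE3 and keeps them out of the nucleus. These controls act largely on the proteins, so the RNA levels given here do not show activity of the factors. GPNMB is a transmembrane glycoprotein of melanosomes and lysosomes and a known target of MITF and TFE3, and CD68 is a heavily glycosylated lysosomal membrane protein of the LAMP family, used as a macrophage marker but made at lower levels by other cells.

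Gpnmb (chr6:49036518-49058182 in GRCm38.p6) stood at 8.08, 8.15 and 8.19 log2 units in fibrillar collagen, 7.46, 7.38 and 7.56 in non-fibrillar collagen and 8.75, 8.94 and 8.82 in Matrigel. No array of one group overlapped another group. The group means were 8.14 ± 0.057 in fibrillar collagen, 7.47 ± 0.088 in non-fibrillar collagen and 8.84 ± 0.095 in Matrigel (SD, n = 3 each). Fibrillar collagen was thus 1.60-fold above non-fibrillar collagen and 1.62-fold below Matrigel, so that the fibrillar level lay near the middle of the range. Non-fibrillar collagen was 2.58-fold below Matrigel.

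Cd68 (chr11:69664213-69666170) had the same order of groups. Its levels were 8.34, 8.39 and 8.63 in fibrillar collagen, 7.62, 7.56 and 7.67 in non-fibrillar collagen and 8.87, 9.05 and 9.07 in Matrigel, again without overlap. The means were 8.45 ± 0.16 in fibrillar collagen, 7.62 ± 0.055 in non-fibrillar collagen and 8.999 ± 0.11 in Matrigel (SD, n = 3 each). Fibrillar collagen was 1.78-fold above non-fibrillar collagen and 1.46-fold below Matrigel, and non-fibrillar collagen was 2.61-fold below Matrigel. The step between the collagens was thus the larger one for Cd68, while both steps were of about the same size for Gpnmb.

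**Figure D1:**
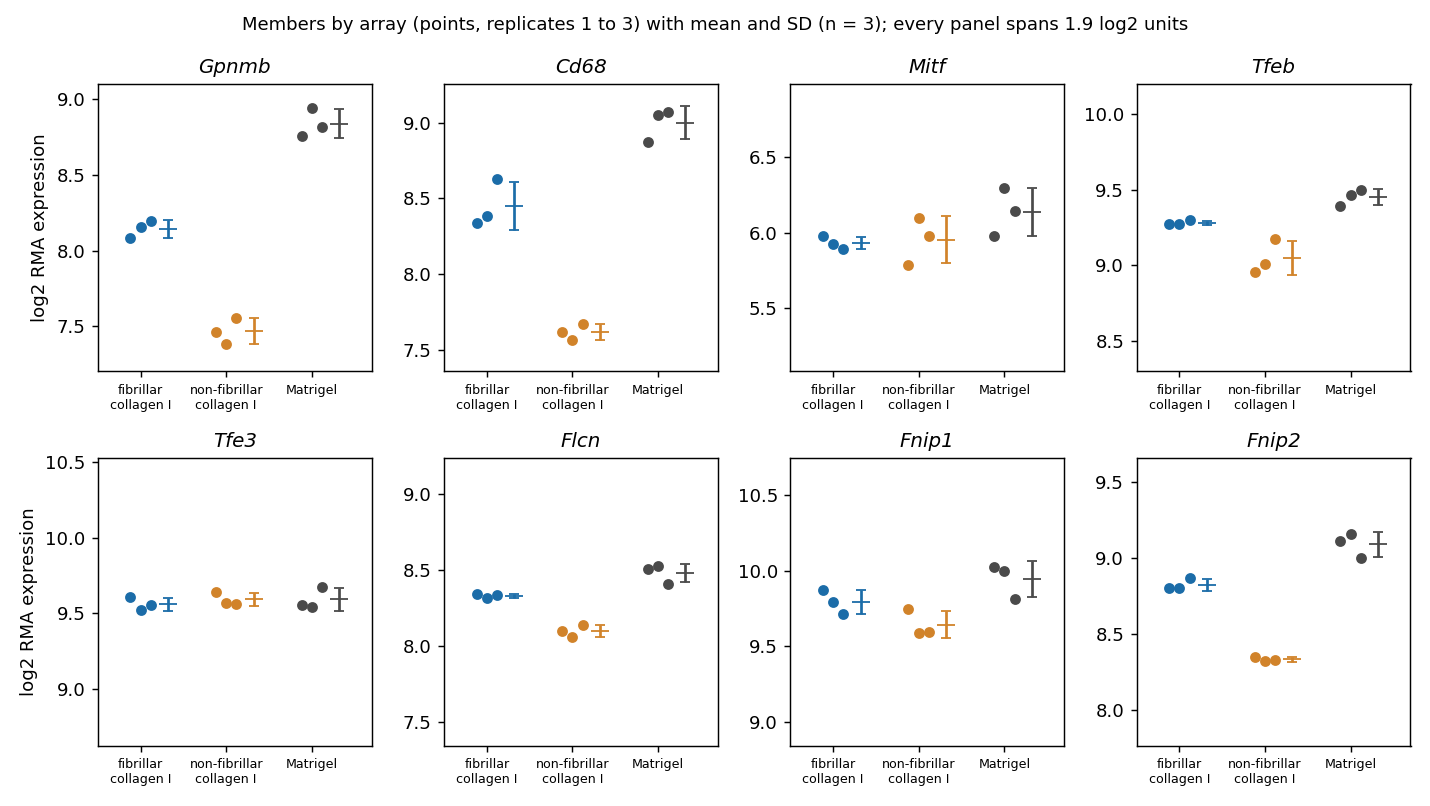
Level of each of the 8 genes (y axes, log2 RMA units, 1 panel per gene, axes not starting at 0) in fibrillar collagen I, non-fibrillar collagen I and Matrigel; points are the 9 arrays and bars the group mean with its SD (n = 3). Gpnmb, Cd68, Tfeb, Flcn and Fnip2 have no overlap between groups, whereas the arrays of Mitf and Tfe3 overlap.

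The sequences just before the transcription starts of both genes are given because they are the region in which E-boxes and other short elements would be read. They are the 250 bases before the RefSeq start in GRCm38.p6, on the gene's strand, 5′ to 3′, at chr6:49036268-49036517 on the plus strand for Gpnmb and chr11:69666171-69666420 on the minus strand for Cd68. Capitals mark matches to TGACTCA or to its reverse complement TGAGTCA, the letters of an AP-1 type element.
Gpnmb promoter: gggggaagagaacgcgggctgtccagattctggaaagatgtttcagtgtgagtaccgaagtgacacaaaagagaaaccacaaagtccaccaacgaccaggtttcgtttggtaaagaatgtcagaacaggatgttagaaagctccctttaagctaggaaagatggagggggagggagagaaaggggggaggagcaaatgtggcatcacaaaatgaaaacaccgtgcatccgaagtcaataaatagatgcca
Cd68 promoter: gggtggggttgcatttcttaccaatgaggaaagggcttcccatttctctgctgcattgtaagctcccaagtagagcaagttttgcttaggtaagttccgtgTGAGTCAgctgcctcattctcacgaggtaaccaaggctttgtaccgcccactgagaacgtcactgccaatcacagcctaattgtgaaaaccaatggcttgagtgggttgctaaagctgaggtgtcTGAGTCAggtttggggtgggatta
The Gpnmb stretch upstream of the start holds no match, and its only one lies 8 to 14 bases after the start base, shown here in capitals within its flanks.
Gpnmb after the start: caggggcaagTGACTCAtgagcacgag
In Cd68 the matches lie 24 to 18 and 149 to 143 bases before the start. Windows of 300 bases (250 before and 50 after the start) of all 32851 RefSeq starts held TGACTCA on either strand in 5.20% of cases. This motif was picked after the windows had been seen, so its presence in both genes is a description only. CACGTG, the E-box of the CLEAR element bound by TFEB and TFE3, stood in 7.15% of all windows and CATGTG, an E-box letter form bound by MITF, in 14.2%, and neither was in the windows of Gpnmb or Cd68. The absence of these letters from these windows says nothing about binding of the factors elsewhere.

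Among the factors themselves, Tfeb was the one called in any comparison. Tfeb (chr17:47737037-47792416) stood at 9.27, 9.27 and 9.30 in fibrillar collagen, 8.96, 9.01 and 9.17 in non-fibrillar collagen and 9.39, 9.46 and 9.50 in Matrigel, with no overlap. Non-fibrillar collagen was lower than Matrigel by 0.40 ± 0.058 log2 units (SE, 1.32-fold, limma adjusted p = 0.0015). The difference of 0.23 ± 0.060 between fibrillar and non-fibrillar collagen did not pass (95% interval 0.089 to 0.38, limma adjusted p = 0.0748), and nor did that of -0.17 ± 0.058 between fibrillar collagen and Matrigel (interval -0.30 to -0.043, adjusted p = 0.148). The collagen difference did pass when all 9 arrays entered the fit (adjusted p = 0.0354) and when non-fibrillar array 3, the highest of its group, was left out (adjusted p = 0.0382). Over all alternatives its adjusted p ran from 0.0354 to 0.216.

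Mitf (chr6:97807002-98021360) gave 5.98, 5.92 and 5.89 in fibrillar collagen, 5.79, 6.10 and 5.98 in non-fibrillar collagen and 5.98, 6.30 and 6.14 in Matrigel, and all groups overlapped with another. Its difference between fibrillar and non-fibrillar collagen was -0.02 (95% interval -0.21 to 0.17, limma adjusted p = 0.888). Against Matrigel, fibrillar collagen was at -0.21 (interval -0.41 to -0.0029, adjusted p = 0.268) and non-fibrillar collagen at -0.18 (interval -0.39 to 0.021, adjusted p = 0.252). A further Mitf probe set was dimmer, between 2.84 and 3.09 on all arrays. The value 5.98 was identical to the last digit on 3 arrays, 1 of each group, and between 4.53% and 7.19% of all probe set values were equal in this way between any pair of the 9 arrays.

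For Tfe3 (chrX:7762530-7775202) the intervals of all 3 differences included 0, and all groups overlapped. Its levels were 9.61, 9.52 and 9.55 in fibrillar collagen, 9.64, 9.57 and 9.56 in non-fibrillar collagen and 9.56, 9.54 and 9.68 in Matrigel. Fibrillar minus non-fibrillar collagen was -0.03 (95% interval -0.13 to 0.068, limma adjusted p = 0.701), fibrillar collagen minus Matrigel -0.03 (-0.14 to 0.078, adjusted p = 0.777) and non-fibrillar collagen minus Matrigel within -0.11 to 0.11 (adjusted p = 1). Tfec, the other gene of the family, lay between 3.97 and 4.29 on all arrays and passed in no comparison (limma adjusted p = 0.886 between the collagens, 0.720 for fibrillar collagen against Matrigel and 0.817 for non-fibrillar collagen against Matrigel).

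Fnip2 differed in all 3 comparisons. Fnip2 (chr3:79455971-79568151), which encodes a folliculin partner, stood at 8.80, 8.80 and 8.87 in fibrillar collagen, 8.35, 8.32 and 8.32 in non-fibrillar collagen and 9.11, 9.16 and 8.999 in Matrigel. Its groups did not overlap and had the order of Gpnmb and Cd68. Fibrillar collagen was higher than non-fibrillar collagen by 0.49 ± 0.036 (SE, 1.41-fold, limma adjusted p = 0.0042) and lower than Matrigel by 0.27 ± 0.048 (difference -0.27, 1.20-fold, adjusted p = 0.0168). Non-fibrillar collagen was at -0.76 ± 0.048 against Matrigel (1.69-fold lower, adjusted p = 1.7e-05). The call of fibrillar collagen against Matrigel was lost when only these 6 arrays were fitted (adjusted p = 0.0589) or when fibrillar array 1 or 2 or Matrigel array 1 or 2 was left out, and its adjusted p over all alternatives ran from 0.0098 to 0.0646.

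Flcn (chr11:59791408-59810039) had the same order on a smaller scale. It stood at 8.34, 8.31 and 8.33 in fibrillar collagen, 8.10, 8.06 and 8.14 in non-fibrillar collagen and 8.51, 8.53 and 8.41 in Matrigel, without overlap. Fibrillar collagen was above non-fibrillar collagen by 0.23 ± 0.036 (1.17-fold, limma adjusted p = 0.0200), a call that was lost without any one array other than non-fibrillar array 3 (range over all alternatives 0.0116 to 0.0767). Non-fibrillar collagen was at -0.38 ± 0.044 against Matrigel (1.30-fold lower, adjusted p = 4.6e-04). Fibrillar collagen against Matrigel, at -0.15 ± 0.044 (95% interval -0.25 to -0.053), did not pass (adjusted p = 0.0958).

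Fnip1 (chr11:54438107-54518241), the other folliculin partner, gave 9.87, 9.79 and 9.71 in fibrillar collagen, 9.75, 9.59 and 9.60 in non-fibrillar collagen and 10.02, 9.999 and 9.81 in Matrigel. Its fibrillar arrays overlapped with those of both other groups. It was lower in non-fibrillar collagen than in Matrigel by 0.30 ± 0.071 (1.23-fold, limma adjusted p = 0.0188), a call lost without non-fibrillar array 2 or 3 or Matrigel array 1 or 2 (range over all alternatives 0.0041 to 0.0770). Fibrillar collagen was at 0.15 against non-fibrillar collagen (95% interval -0.00037 to 0.30, adjusted p = 0.232) and at -0.15 against Matrigel (-0.31 to 0.0044, adjusted p = 0.289).

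The motif matches of the folliculin partners are shown because, of the windows of the 6 regulators, theirs were the ones that held a searched motif. The RefSeq windows of these genes start from a transcript that begins inside the gene's outer bound, 72 bases inside it for Fnip1 and 472 bases inside it for Fnip2, so only the matches with their flanks are printed, on the gene's strand, 5′ to 3′. They lie at chr11:54438094-54438119 (plus) and chr11:54438185-54438214 (plus) for Fnip1 and at chr3:79567766-79567795 (minus) for Fnip2. Capitals mark CACGTG in the first and GTCATATGAC, a palindrome of GTCA and TGAC 2 bases apart, in the others.
Fnip1 E-box: agtttgctgcCACGTGatacggctcg
Fnip1 palindrome: actaatttctGTCATATGACtgaggcgccc
Fnip2 palindrome: ggccggctccGTCATATGACcggccggcgg
Counted from the starts of those transcripts, the Fnip1 E-box lies 75 to 70 bases before the start and its palindrome 16 to 25 bases after the start base, and the Fnip2 palindrome lies 106 to 97 bases before the start. The Fnip1 E-box therefore spans the outer bound of the gene region, and the palindromes of both genes lie within the gene.
GTCA and TGAC with any 2 bases between them were in 1.02% of all windows, and this motif too was chosen after the sequences had been read. None of the 4 motifs was in the 3 windows of Mitf, the 3 of Tfeb, the 2 of Tfe3 or that of Flcn.

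**Figure D2:**
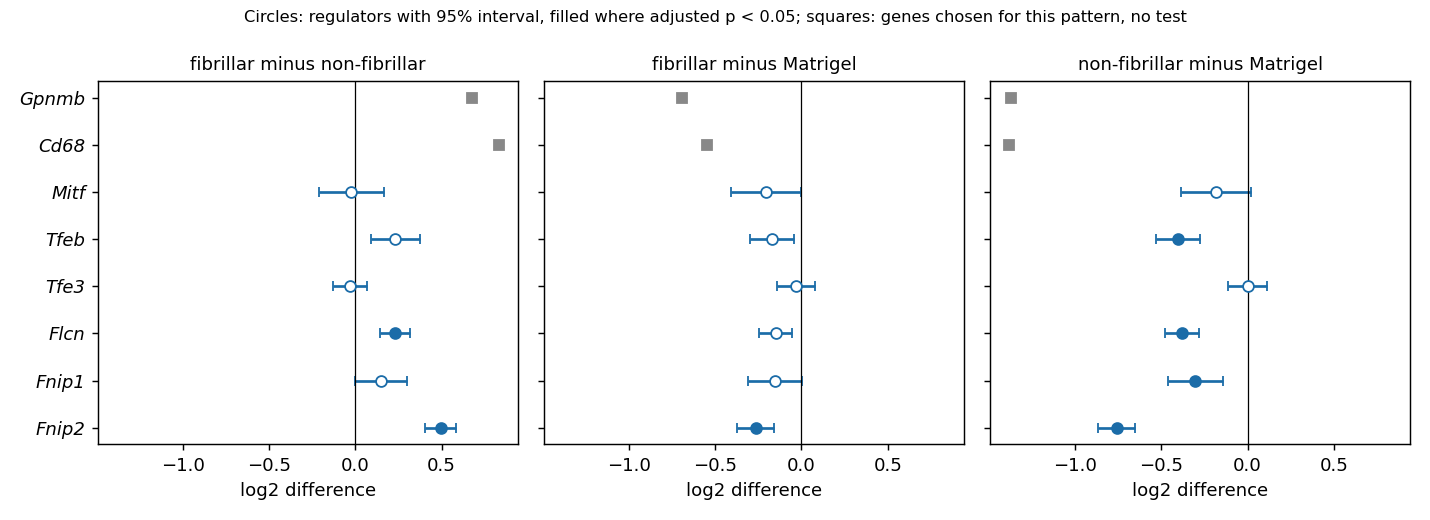
Differences between group means in log2 units (x axis) for the 8 genes (y axis) in each of the 3 comparisons, with 95% limma intervals for the 6 regulators and no interval for Gpnmb and Cd68, which were chosen on these differences; filled points passed an adjusted p of 0.05. Fnip2 is the regulator farthest from 0 in each comparison, and the intervals of Tfe3 include 0 in all of them.

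Between fibrillar and non-fibrillar collagen 2 of 6 regulators were called (Flcn and Fnip2), both higher, where 6.4% of all genes were called, 2.71% higher and 3.69% lower. Between fibrillar collagen and Matrigel 1 of 6 was called (Fnip2, lower), where 3.82% of all genes were called, 1.45% higher and 2.37% lower. In non-fibrillar collagen against Matrigel 4 of 6 were called (Tfeb, Flcn, Fnip1 and Fnip2), all lower, where 13.8% of all genes were called, 6.75% higher and 7.07% lower. The comparisons share arrays, so these counts are not independent. Tfeb, Flcn and Fnip2 had every non-fibrillar array below every fibrillar array and every fibrillar array below every Matrigel array, as 2.19% of all genes did (436 of 19938), with the opposite order in 1.51%. Fnip2 was also among the 144 genes (0.722%) called in all 3 comparisons.

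The array profiles of the members were also set against each other, each centred on its mean over the 9 arrays and compared by the root mean square (RMS) of the differences, so that 0 means the same profile. Gpnmb and Cd68, both chosen for their stepwise levels, were 0.099 log2 units apart. Fnip2 was the regulator nearest to both, at 0.263 from Gpnmb and 0.272 from Cd68, and Tfe3 was the farthest, at 0.567 and 0.579. Tfeb and Flcn lay 0.066 apart and Flcn and Fnip1 0.074 apart. A gene with small differences lies near any other such gene on this measure, and the arrays within a group share their group's level.

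Across the other genes on the array the profile nearest to Gpnmb was that of Atp13a4, a P-type ATPase of endosomes, at an RMS of 0.082. Lipa, the lysosomal acid lipase, followed at 0.118, Colec12, a scavenger receptor, at 0.121, Ppargc1a, a transcriptional coactivator of mitochondrial genes, at 0.136 and Wfdc3 at 0.137. Nearest to Cd68 were Dio2, a deiodinase that activates thyroid hormone, at 0.112, Pcx, the mitochondrial pyruvate carboxylase, at 0.118, Ppargc1a at 0.131, Lipa at 0.133 and Atp13a4 at 0.140. Atp13a4 averaged 7.04 in fibrillar collagen, 6.43 in non-fibrillar collagen and 7.84 in Matrigel. Dio2 averaged 9.07 in fibrillar collagen, 8.19 in non-fibrillar collagen and 9.47 in Matrigel. These likenesses rest on 9 arrays in 3 groups and were not tested.

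**Figure D3:**
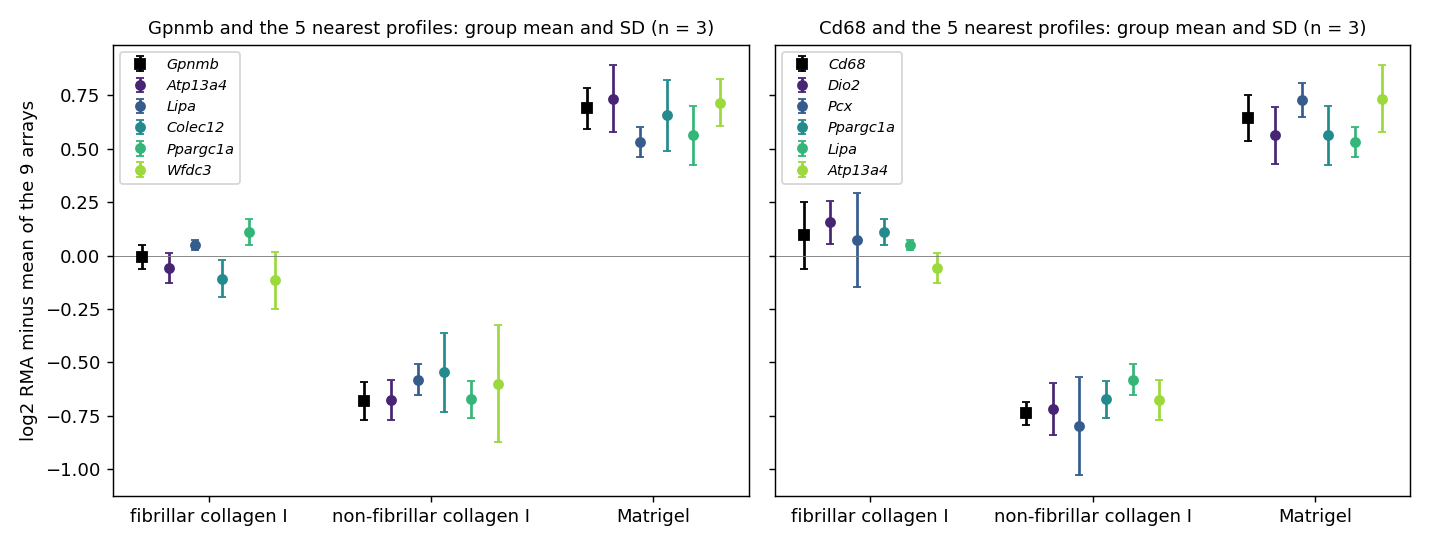
Group means of Gpnmb (left) and Cd68 (right) and of the 5 genes with the nearest profiles to each, as log2 RMA units minus the gene's mean over the 9 arrays (y axis), in the 3 groups (x axis); bars are SDs (n = 3). Fibrillar collagen lies near 0, non-fibrillar collagen below it and Matrigel above it for each of these genes, which were picked for that likeness.

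The CLEAR network holds lysosomal and autophagy genes that TFEB is known to activate. Those of its genes that were called differed in the same directions as Gpnmb and Cd68. Of 42 measured genes of this list, fibrillar collagen was higher than non-fibrillar collagen in 12 and lower in 0, where 2.71% of all genes were higher and 3.69% lower, and the median difference was 0.131 against 0.008 over all genes tested. In fibrillar collagen against Matrigel 0 were higher and 8 lower (1.45% and 2.37% of all genes, median -0.109 against 0.003 over all genes), and in non-fibrillar collagen against Matrigel 0 were higher and 28 lower (6.75% and 7.07% of all genes, median -0.259 against 0.001). All 3 groups were separate and in the order of Gpnmb for 13 of the 42 genes, among them Ctsb, Ctsd, Hexa, Neu1, Psap, Lamp1 and Atp6v0a1. Over all genes 2.19% had this order and 1.51% the opposite one. The count of 12 between the collagens was 3 to 6 when any one array was left out and 6 when arrays were centred on their medians, and Lipa, Npc1 and Atp6v0a1 kept the call without any one array. The count of 8 against Matrigel was 3 to 5 without fibrillar array 1 or 2 or Matrigel array 2 or 3 and 5 when only the arrays of these groups were fitted, and Lipa, Gla and Npc2 kept the call without any one array.

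Lipa had the smallest p of this list in each comparison, with 11.51, 11.51 and 11.55 in fibrillar collagen, 10.92, 10.81 and 10.95 in non-fibrillar collagen and 11.93, 12.06 and 12.04 in Matrigel. It was higher in fibrillar than in non-fibrillar collagen by 0.63 ± 0.046 (SE, limma adjusted p = 0.0042) and at -0.48 ± 0.051 against Matrigel (adjusted p = 0.0012). Npc1, which exports cholesterol from lysosomes, was higher in fibrillar than in non-fibrillar collagen by 0.62 ± 0.059. Atp6v0a1, a subunit of the proton pump that acidifies lysosomes, was higher by 0.37 ± 0.038 and Gla, the lysosomal alpha-galactosidase, by 0.34 ± 0.054 in the same comparison. Against Matrigel, fibrillar collagen was lower for Gla (-0.41 ± 0.056), for Npc2, the soluble partner of Npc1 (-0.40 ± 0.066), and for Hexa, a subunit of beta-hexosaminidase (-0.30 ± 0.054). In non-fibrillar collagen against Matrigel Lipa was at -1.11 ± 0.051, Gla at -0.76 ± 0.056, Atp6v0a1 at -0.60 ± 0.044 and Hexa at -0.57 ± 0.054.

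Rragd, which encodes the Rag GTPase RagD and is itself a known target of the MiT/TFE factors, was called in all 3 comparisons, as Fnip2 was. Of 23 genes of the Rag, Ragulator and mTORC1 complexes, fibrillar collagen exceeded non-fibrillar collagen in 1 and fell below it in 0 (median -0.011), 0 were higher and 2 lower in fibrillar collagen than in Matrigel (median -0.048), and 0 were higher and 5 lower in non-fibrillar collagen than in Matrigel (median -0.036). The share called in these 3 comparisons over all genes was 6.4%, 3.82% and 13.8%, so that 1 of 23 is below it, and the all-gene medians were 0.008, 0.003 and 0.001. Rragd stood at 6.39, 6.46 and 6.41 in fibrillar collagen, 5.96, 6.06 and 6.19 in non-fibrillar collagen and 6.71, 6.86 and 6.72 in Matrigel, with no overlap. Its differences were 0.35 ± 0.062 for fibrillar minus non-fibrillar collagen (limma adjusted p = 0.0293), -0.34 ± 0.064 for fibrillar collagen minus Matrigel (adjusted p = 0.0189) and -0.69 ± 0.064 for non-fibrillar collagen minus Matrigel. The first of these calls was lost without any one array other than non-fibrillar array 3, the second without any one fibrillar array or Matrigel array 2, and the third under no such omission. The other gene lower in fibrillar collagen than in Matrigel was the Ragulator subunit Lamtor4 (-0.22 ± 0.051), a call that remained only without non-fibrillar array 1. Lower in non-fibrillar collagen than in Matrigel were also Tsc1, a brake on mTORC1 (-0.28 ± 0.051), Slc38a9, an arginine sensor of the lysosome (-0.35 ± 0.074), Lamtor3 (-0.25 ± 0.059) and Rptor, the Raptor subunit of mTORC1 (-0.17 ± 0.044). Rptor lost its call without any one array of these groups, Lamtor3 without Matrigel array 2 or 3 and Slc38a9 without Matrigel array 2.

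Of 17 measured genes that act on the location of the factors (14-3-3 proteins, phosphatases, kinases, an exportin and the calcium channel Mcoln1), limma called 0 between the collagens, where 5 had an unadjusted p under 0.05, and 0 between fibrillar collagen and Matrigel, where 3 did. Their medians were -0.054 and -0.019, and 0.036 in non-fibrillar collagen against Matrigel. With replicate number as a block, 1 of them, the kinase gene Gsk3b, was called between the collagens. In non-fibrillar collagen against Matrigel Mcoln1 was lower (-0.38 ± 0.056, limma adjusted p = 0.0017) and Ywhah, a 14-3-3 protein, higher (0.20 ± 0.040, adjusted p = 0.0086). These 2 of 17 stand beside 13.8% of all genes called in that comparison, and the counts of 0 beside 6.4% and 3.82%. Mcoln1 was separate between all groups, with 10.25, 10.25 and 10.38 in fibrillar collagen, 10.11, 10.10 and 10.22 in non-fibrillar collagen and 10.46, 10.59 and 10.53 in Matrigel.

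Melanocyte and osteoclast genes, the classical targets of MITF, were read next, beside 6.4%, 3.82% and 13.8% of all genes called in the 3 comparisons. Among 17 melanocyte genes limma called 0 each time (medians 0.036 between the collagens, 0.038 for fibrillar collagen and -0.002 for non-fibrillar collagen against Matrigel), with 1 at an unadjusted p under 0.05 between the collagens and 2 in each comparison with Matrigel. The ocular albinism receptor gene Gpr143 was the 1 gene called between the collagens with replicate number as a block. Tyr, the first enzyme of melanin synthesis, lay between 4.41 and 4.68 and Pmel, the melanosome fibril protein related to GPNMB, between 5.31 and 5.50 over all arrays, with overlapping groups. Dct, a later enzyme of melanin synthesis, lay between 4.55 and 4.90, with the non-fibrillar arrays just above those of Matrigel, and did not pass. Of 10 osteoclast genes under MITF and TFE control, Clcn7, a lysosomal chloride transporter, was the 1 called between the collagens (0.18 ± 0.038, limma adjusted p = 0.0421), and 0 were called with replicate number as a block or without any one array. Acp5, the tartrate-resistant acid phosphatase, was the 1 called between fibrillar collagen and Matrigel (-0.33 ± 0.068), lost without fibrillar array 1 or 2 or any Matrigel array. The medians of these 10 genes were 0.003 between the collagens, -0.101 for fibrillar collagen and -0.088 for non-fibrillar collagen against Matrigel. In non-fibrillar collagen against Matrigel Clcn7 (-0.32), its partner Ostm1 (-0.33), the proton pump subunit Atp6v0d2 (-0.32) and Acp5 (-0.36) were lower, and the gelatinase gene Mmp9 was higher (0.34). Atp6v0d2 was dim, at 3.70 to 4.14 over all arrays and below every array median. Clcn7 and Ostm1 are also in the CLEAR list.

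The next lists were membrane protein genes, of which only the LAMP family genes are relatives of CD68, and partners of GPNMB. Both lists had most of their calls in non-fibrillar collagen against Matrigel, as all genes did (13.8%, against 6.4% between the collagens and 3.82% in fibrillar collagen against Matrigel). Of the 9 membrane protein genes limma called 0 between the collagens, with 2 at an unadjusted p under 0.05, and 0 between fibrillar collagen and Matrigel, with 3 (medians 0.019 and -0.076). Lower in non-fibrillar collagen than in Matrigel were Lamp1 (-0.22 ± 0.035), Scarb2, the receptor that carries glucocerebrosidase to lysosomes (-0.31 ± 0.057), and Lamp2 (-0.15 ± 0.043, limma adjusted p = 0.0491), whose call was lost without any one array of either group or fibrillar array 1. Lamp1 and Lamp2 are also in the CLEAR list. Of 6 measured partners, Itga5, an integrin subunit, was above its non-fibrillar level in fibrillar collagen (0.23 ± 0.049, limma adjusted p = 0.0455, lost without any one array) and lower in non-fibrillar collagen than in Matrigel (-0.29 ± 0.052). Adam10, the protease that sheds the GPNMB ectodomain, was lower in non-fibrillar collagen than in Matrigel as well (-0.22 ± 0.045), and limma called 0 between fibrillar collagen and Matrigel, also with 0 at an unadjusted p under 0.05.

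Genes of lipid-laden phagocytes, a setting in which Gpnmb and Cd68 are often reported together, had calls in every comparison. Of 14 measured genes, fibrillar collagen was above non-fibrillar collagen in 4 and below it in 0 (median 0.155), 0 higher and 5 lower in fibrillar collagen than in Matrigel (median -0.119), and 1 higher and 9 lower in non-fibrillar collagen than in Matrigel (median -0.623). Over all genes 2.71% were higher and 3.69% lower in the first of these comparisons, 1.45% and 2.37% in the second and 6.75% and 7.07% in the third. Abca1 and Abcg1, which export cholesterol, were higher in fibrillar than in non-fibrillar collagen by 0.99 ± 0.071 and 0.63 ± 0.084. Abca1 stood at 8.90, 9.08 and 9.05 in fibrillar collagen, 7.91, 8.03 and 8.11 in non-fibrillar collagen and 8.77, 9.06 and 8.96 in Matrigel, so that its fibrillar and Matrigel arrays overlapped. The lipoprotein lipase gene Lpl (0.37 ± 0.055) and the lysosomal protease gene Lgmn (0.38 ± 0.062) were the others higher in fibrillar collagen. The count of 4 was 1 to 3 when any one array was left out, and Abca1 kept its call each time.

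Against Matrigel, fibrillar collagen was lower for the lipid carriers Fabp4 (-0.81 ± 0.083) and Fabp5 (-0.63 ± 0.11), for the lipid-sensing receptor gene Trem2 (-0.66 ± 0.11), for Nr1h3, which encodes the oxysterol receptor LXR alpha (-0.60 ± 0.11), and for Lpl (-0.36 ± 0.054). Without Matrigel array 2 there were 3 calls, and Fabp5 and Nr1h3 were not among them. Lpl, Fabp4 and Nr1h3, 3 of the 14 genes, had no overlap between groups in the order of Gpnmb, as 2.19% of all genes did. Fabp4 and Nr1h3 were not called between the collagens. The closest collagen arrays of Fabp4 stood at 5.354 (fibrillar) and 5.349 (non-fibrillar), and its collagen difference was 0.21 (limma adjusted p = 0.170). Nr1h3 stood at 8.97, 9.04 and 9.30 in fibrillar collagen, 8.55, 8.73 and 8.95 in non-fibrillar collagen and 9.62, 9.73 and 9.77 in Matrigel.

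**Figure D4:**
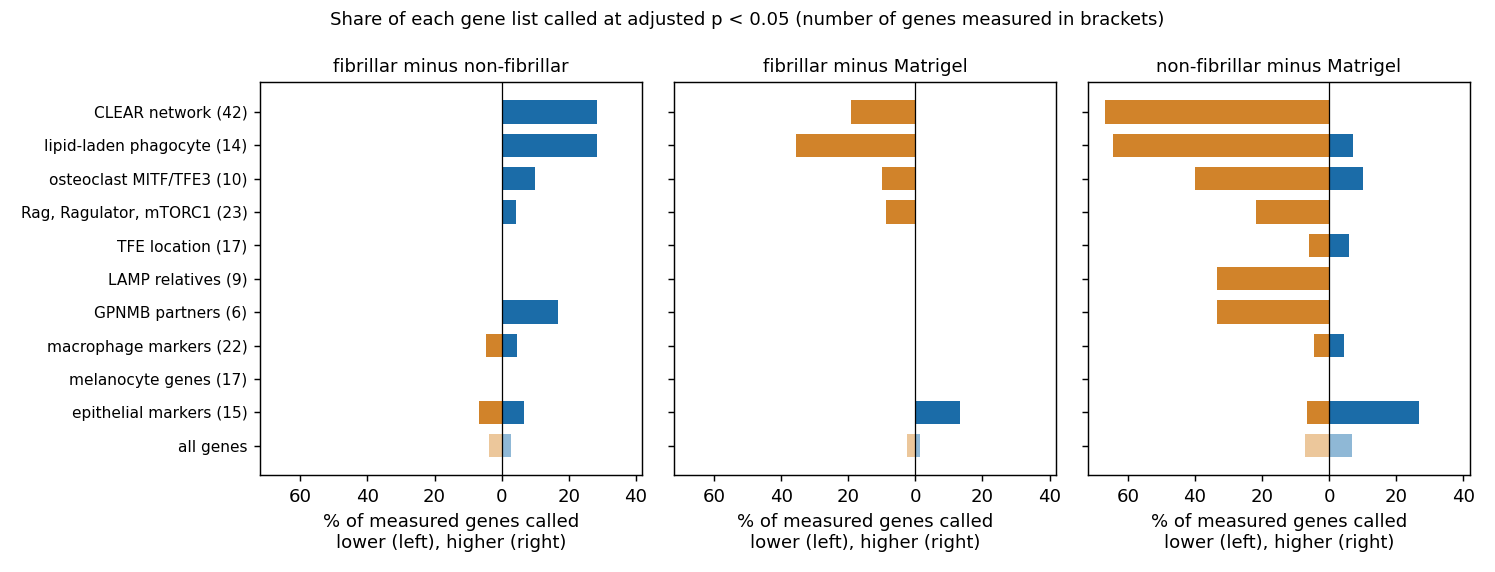
Share of each gene list (y axis, number of measured genes in brackets) called by limma at an adjusted p of 0.05 (x axis, percent of measured genes) in each comparison, with higher and lower calls in blue and orange. The CLEAR and lipid-laden phagocyte lists have calls mainly upward between the collagens and downward against Matrigel, and the melanocyte list has none.

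Because CD68 also marks macrophages, 22 other macrophage genes were read on the same arrays. In fibrillar against non-fibrillar collagen Mertk, a receptor for apoptotic cells, was higher (0.66 ± 0.052, limma adjusted p = 0.0049) and Cd14, a lipopolysaccharide co-receptor, lower (-0.37 ± 0.079, adjusted p = 0.0466). The call of Mertk remained without any one array, and that of Cd14 was lost without any one. Limma called 0 of them between fibrillar collagen and Matrigel, with 2 at an unadjusted p under 0.05, and in non-fibrillar collagen against Matrigel Mertk was lower (-0.81 ± 0.054) and Cd14 higher (0.28 ± 0.073). These counts of 2, 0 and 2 of 22 stand beside 6.4%, 3.82% and 13.8% of all genes called. The list's medians were 0.019, 0.022 and 0.014 in these comparisons. No gene of it had the stepwise order of Gpnmb and Cd68, but only 2.19% of all genes had that order. The summed log2 level of the list was 112.6 to 113.4 in fibrillar collagen, 111.9 to 112.8 in non-fibrillar collagen and 112.4 to 113.7 in Matrigel, with overlapping ranges. Adgre1, a surface receptor gene of mature macrophages, lay between 3.82 and 4.09, the CSF1 receptor gene Csf1r between 4.72 and 4.84 and the pan-leukocyte gene Ptprc (CD45) between 4.72 and 5.12 over the 9 arrays. In all, 19 of the 22 genes were below every array median on every array, 2 were above, namely Mertk at 8.38 to 9.28 and Cd14 at 7.49 to 8.12, and Cx3cr1 lay across the medians. No detection calls were used here, so the arrays do not show whether these genes were expressed. Nor was the share of all genes below the medians counted.

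Of 15 epithelial markers of the labelled cell type, 10 were above all array medians on every array, among them Krt8 (13.12 to 13.33), Krt18 (12.60 to 12.92) and Cdh1 (E-cadherin). Below them on every array were 4, namely the keratin gene Krt19 (5.14 to 5.45), Cldn4 (5.71 to 5.97), Grhl2 (4.45 to 4.74) and Esrp1 (4.64 to 4.91). Epcam lay across the medians, between 5.84 and 6.24. The medians were taken over all probe sets, and the share of all genes above or below them was not counted. These counts therefore do not identify a cell type. Limma called 2 of the 15 between the collagens, 2 between fibrillar collagen and Matrigel and 5 between non-fibrillar collagen and Matrigel. Over all genes 6.4%, 3.82% and 13.8% were called in these comparisons. Desmoplakin (Dsp) was higher (0.53 ± 0.055) and Krt7 lower (-0.30 ± 0.034) in fibrillar collagen when set against non-fibrillar collagen, and Krt7 (0.90 ± 0.039) and Krt18 (0.23 ± 0.040) were higher in fibrillar collagen than in Matrigel. Krt7 lost the collagen call without fibrillar array 3, and Krt18 lost its call without Matrigel array 2. In non-fibrillar collagen against Matrigel Krt7 (1.20), Krt18 (0.28), Epcam (0.28) and Cldn7 (0.18) were higher and Dsp was lower (-0.59). The part of such marker differences in the levels of Gpnmb, Cd68 and the regulators was not tested.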

How the data were processed

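Total RNA of 9 samples was measured on Affymetrix gene arrays. The authors deposited log2 values for each probe set. The submitters' processing notes name RMA in Affymetrix Power Tools, and the sources used here give no version, setting or list of the arrays normalized together. RMA quantile-normalizes arrays, so a shift shared by most genes would be removed. The deposited table held 35512 probe sets, with log2 values from 2.11 to 14.08. The platform annotation gave 21789 probe sets 1 gene symbol, 1621 several and 12102 none listed; those with several or none were not used. Each of 999 genes with several probe sets was read from the one of highest mean over the arrays, so that 19938 genes were tested, dim ones included. Of 183 entries in 10 gene lists, 175 were measured.

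The members, lists, motifs and tests were chosen with earlier results of these data known. Differences were fitted with lmFit and eBayes of limma 3.58.1 under R 4.3.3, two-sided, at 0.05 after adjustment by Benjamini and Hochberg across every gene, after the code had been tested on simulated data. The collagen comparison used its own 6 arrays, and each comparison with Matrigel used all 9. Every called gene of a list was named where 5 or fewer were called in a comparison. The 4 genes with the smallest p per comparison were also picked, but most that did not pass are not printed. For the lipid-laden phagocyte list only counts and the median are given for non-fibrillar collagen against Matrigel. Other genes named are examples chosen after their values were seen. The nearest profiles skipped members and predicted genes.

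Arrays share replicate numbers across groups. Deviations of same-numbered fibrillar and non-fibrillar arrays from their group means correlated across genes at 0.221, 0.143 and 0.242, all over 0.1. The numbers may thus pair these arrays, which comes from the data and from no label. The fits reported above included no pairing, and a replicate block was run as an alternative. For fibrillar collagen and Matrigel the correlations were 0.253, 0.103 and 0.0968, and for non-fibrillar collagen and Matrigel 0.125, 0.0449 and 0.135, so not all were over 0.1. Arrays of different numbers were not correlated for contrast, so pairing was not settled in any comparison. No 2 arrays were duplicates, as the most alike were 0.127 log2 units apart on average. Alternatives were a replicate block, other arrays in the fit, quantile normalization again, centring, a filter on the dimmest genes, array weights, the mean over a gene's probe sets, a prior that was trended and robust, a stricter threshold and leaving out each array. Counts of list members under these alternatives were added after the data had been seen. Promoter sequences and gene positions are from RefSeq (GRCm38.p6), which held all 8 members.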

Additional observations from a re-analysis of the deposited data

How the results depend on the processing

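Gpnmb and Cd68 kept their direction in all comparisons under the other settings read for them. Their groups do not overlap and they were picked for this order, so leaving out 1 array could not reverse it. The ranges are thus a description only, at 0.63 to 0.72 log2 units for Gpnmb and 0.74 to 0.89 for Cd68 (fibrillar minus non-fibrillar collagen). With replicate number as a block the counts of called regulators stayed at 2, 1 and 4 (fibrillar against non-fibrillar collagen, fibrillar collagen against Matrigel, non-fibrillar collagen against Matrigel), those of all genes were 1285, 1020 and 3244, and the block changed no other call of a regulator. Called genes between the collagens, 1277 in the report's fit, were 168 at a threshold of 0.01 and 150 to 569 when 1 array was left out, and the regulators called were 1 at that threshold and 1 to 3. For fibrillar collagen against Matrigel (762 genes) they were 460 with only the 6 arrays of those groups, 239 at a threshold of 0.01 and 353 to 718 when 1 array was left out, and the regulators called were 0, 0 and 0 to 1. For non-fibrillar collagen against Matrigel (2755 genes) they were 1419 at 0.01 and 1814 to 2637, with 3 to 4 regulators, when 1 array was left out. The lower counts given here are from fits with fewer arrays or from a stricter threshold, and why they fell was not tested. Centring, with all arrays kept, also gave a lower count of 663 for fibrillar collagen against Matrigel. The higher count of 3 regulators between the collagens came without non-fibrillar array 3 and also when the Matrigel arrays entered the fit. Tfeb was added in each case, and the cause was not tested. With the Matrigel arrays in the fit, 1765 genes were called between the collagens. Scaling moved the split of higher and lower calls: 541 and 736 between the collagens became 421 and 968 after centring, 289 and 473 for fibrillar collagen against Matrigel became 373 and 366 after quantile normalization, and the 1345 and 1410 of non-fibrillar collagen against Matrigel became 1841 and 1092 after centring. Sign changes occurred in uncalled differences near 0, and the cause was not tested: Mitf between the collagens ranged from -0.107 to 0.0486 and Tfe3 from -0.0565 to 0.0102 (fibrillar collagen minus Matrigel) and -0.0260 to 0.0424 (non-fibrillar collagen minus Matrigel) when 1 array was left out, and the last was 0.0023 after quantile normalization and 0.0359 after centring.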
